A study of Mus musculus with 8 samples.

Results

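H3K27me3, the Polycomb mark, was mapped over 4 imprinted gene clusters that together hold 7 well-known imprinted genes: H19 and Igf2, Kcnq1 and Cdkn1c, Dlk1 and Meg3, and Igf2r. The clusters were chosen by name, and every deposited peak that overlapped 1 of 4 fixed windows of the mouse genome (build mm9) was taken. These were chr7:149755000-149865000 for H19 and Igf2, chr7:150285000-150655000 for Kcnq1 and Cdkn1c, chr12:110680000-110815000 for Dlk1 and Meg3 and chr17:12868000-12968000 for Igf2r. They span 715 kb and held 296 of the 208616 peaks in the 5 lists.

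The lists come from 2 stages of a mouse model of glioma and address whether the mark is redistributed between them. AstroEGFR (n = 2, replicates 1 and 3) are C57BL/6 cortical astrocytes taken on postnatal day 5, lacking Ink4a/Arf and carrying a retroviral human EGFRvIII, a constitutively active EGF receptor. PT (n = 3, replicates 1, 3 and 4) are glioma propagating cells grown out of tumours that formed after such cells were transplanted into CD1 Nude mice, so both groups share the Ink4a/Arf deletion and the receptor. All cells had been cultured and were used at a low passage, but in different media. The study grew astrocytes with serum, and the propagating cells on laminin in neurobasal medium with EGF and a fibroblast growth factor. Stage and culture conditions therefore differ together, and their parts were not tested.

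An imprinted gene is expressed mainly from the copy inherited from 1 parent, and imprinted genes lie in clusters governed by a control region that is DNA-methylated on 1 parental copy. Polycomb repressive complex 2 places H3K27me3 on nucleosomes, and at several clusters it marks the silent copy beside DNA methylation. Igf2 encodes a fetal growth factor and H19 a non-coding RNA expressed from the other parental copy. Cdkn1c encodes the cyclin-dependent kinase inhibitor p57, and Kcnq1, a potassium channel gene, hosts the non-coding RNA Kcnq1ot1, which recruits Polycomb complexes along its cluster in extra-embryonic tissue. Dlk1 encodes a transmembrane protein related to Notch ligands, and Meg3 a non-coding RNA with growth-suppressing activity. Igf2r encodes the receptor that carries IGF2 to the lysosome, and the non-coding RNA Airn, whose promoter lies within it, silences its paternal copy in most tissues other than neurons.

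Polycomb favours promoters rich in CpG, and the members' promoters differ widely in this respect. RefSeq sequences (GRCm38.p6, 250 bases before to 50 bases after a start, on the strand of the gene) were at hand for 8 starts of 4 of the 7 members: Igf2, Dlk1, Meg3 and Igf2r. The 4 below are the richest start of each, with each CpG in capitals. Igf2 (minus strand, chr7:142658755-142659054) is given by the start with the most CpGs of its 4, Dlk1 (plus strand) lies at chr12:109452573-109452872, Meg3 (plus strand) is given by the richer of its 2 starts at chr12:109540746-109541045, and Igf2r (minus strand) lies at chr17:12769657-12769956.
Igf2: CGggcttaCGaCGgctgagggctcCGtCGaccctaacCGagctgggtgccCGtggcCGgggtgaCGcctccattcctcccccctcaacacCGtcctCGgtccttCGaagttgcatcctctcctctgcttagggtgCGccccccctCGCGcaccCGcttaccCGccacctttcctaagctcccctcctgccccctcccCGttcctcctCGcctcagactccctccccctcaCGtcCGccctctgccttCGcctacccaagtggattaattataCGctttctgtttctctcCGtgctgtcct
Dlk1: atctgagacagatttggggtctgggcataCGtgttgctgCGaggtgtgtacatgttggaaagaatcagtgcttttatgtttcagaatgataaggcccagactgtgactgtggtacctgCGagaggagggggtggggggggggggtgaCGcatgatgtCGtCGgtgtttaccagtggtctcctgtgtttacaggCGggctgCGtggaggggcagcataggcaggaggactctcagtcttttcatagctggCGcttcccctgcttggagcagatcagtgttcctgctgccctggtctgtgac
Meg3: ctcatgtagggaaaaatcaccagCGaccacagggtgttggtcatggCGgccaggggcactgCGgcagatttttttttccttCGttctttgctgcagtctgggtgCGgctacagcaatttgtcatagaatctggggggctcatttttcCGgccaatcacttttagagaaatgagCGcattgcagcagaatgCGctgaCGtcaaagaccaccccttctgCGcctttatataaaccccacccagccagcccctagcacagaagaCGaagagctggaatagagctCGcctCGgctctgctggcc
Igf2r: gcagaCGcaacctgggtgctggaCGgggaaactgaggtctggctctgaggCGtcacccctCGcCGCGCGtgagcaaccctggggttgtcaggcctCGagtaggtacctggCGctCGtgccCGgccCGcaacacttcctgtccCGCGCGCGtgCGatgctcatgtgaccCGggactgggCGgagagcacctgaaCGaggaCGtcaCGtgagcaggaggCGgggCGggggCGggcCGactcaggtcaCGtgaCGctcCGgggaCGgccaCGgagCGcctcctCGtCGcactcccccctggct
The CpG count was 24 for Igf2, 9 for Dlk1, 13 for Meg3 and 34 for Igf2r, against a median of 7 over 32851 RefSeq promoters. The starts not shown had fewer, with 2, 14 and 7 CpGs for Igf2 and 1 for Meg3. At least as many CpGs were found in 20.0% of all promoters for the Igf2 sequence, 45.8% for Dlk1, 37.9% for Meg3 and 7.73% for Igf2r. These coordinates are of another build than the peaks. Annotation of mm9 was not used here, so peaks are described by their position and by the side of the window on which they lie. In RefSeq's gene order H19 lies at lower coordinates than Igf2, Kcnq1 than Cdkn1c, and Dlk1 than Meg3.

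The lists differ in length, and this bears on every comparison between libraries. They held between 3722 peaks (AstroEGFR 3, covering 0.136% of the genome) and 66279 peaks (PT4, 3.29%), and their depth in reads is unknown. AstroEGFR 1, PT1 and PT4 included peaks on unplaced sequences, whereas AstroEGFR 3 and PT3 had none, which splits the lists into 2 sets that each hold both stages. Where a list has no peak the mark may still be present below the caller's threshold. Each peak carries a score, taken to be −10 times the log10 of its p-value as MACS writes it. Scores are compared only by their percentile within their own list. A percentile also depends on how many weaker peaks a list holds. Every PT list (40090 to 66279 peaks) was longer than either AstroEGFR list (34021 and 3722), and the part of list length in the ranks was not tested.

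The mark was denser over the 4 windows than over the genome in every library, and the 4 clusters differed sharply. Peaks covered 10.97% of the windows in AstroEGFR 1, 1.32% in AstroEGFR 3, 13.1% in PT1, 6.36% in PT3 and 21.7% in PT4. Relative to the covered share of the genome in the same list this was 5.65, 9.71, 3.84, 4.16 and 6.60 times, in that order. H19-Igf2 and Kcnq1-Cdkn1c carried the mark above the genome level in all 5 libraries. Dlk1-Meg3 stood at 0.96 to 1.81 times that level in 4 of them, and Igf2r was without peaks in 4. Of the 143 bins of 5 kb in the windows, 79 (55.2%) overlapped a peak in at least 1 library, compared with 14.5% of the 512901 bins of the genome. All 3 PT libraries marked 27 bins (18.9%, genome 3.23%), and all 5 libraries marked 9 (6.29%, genome 0.397%), of which 3 lay in the H19-Igf2 window and 6 in the Kcnq1-Cdkn1c window.

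**Figure D1:**
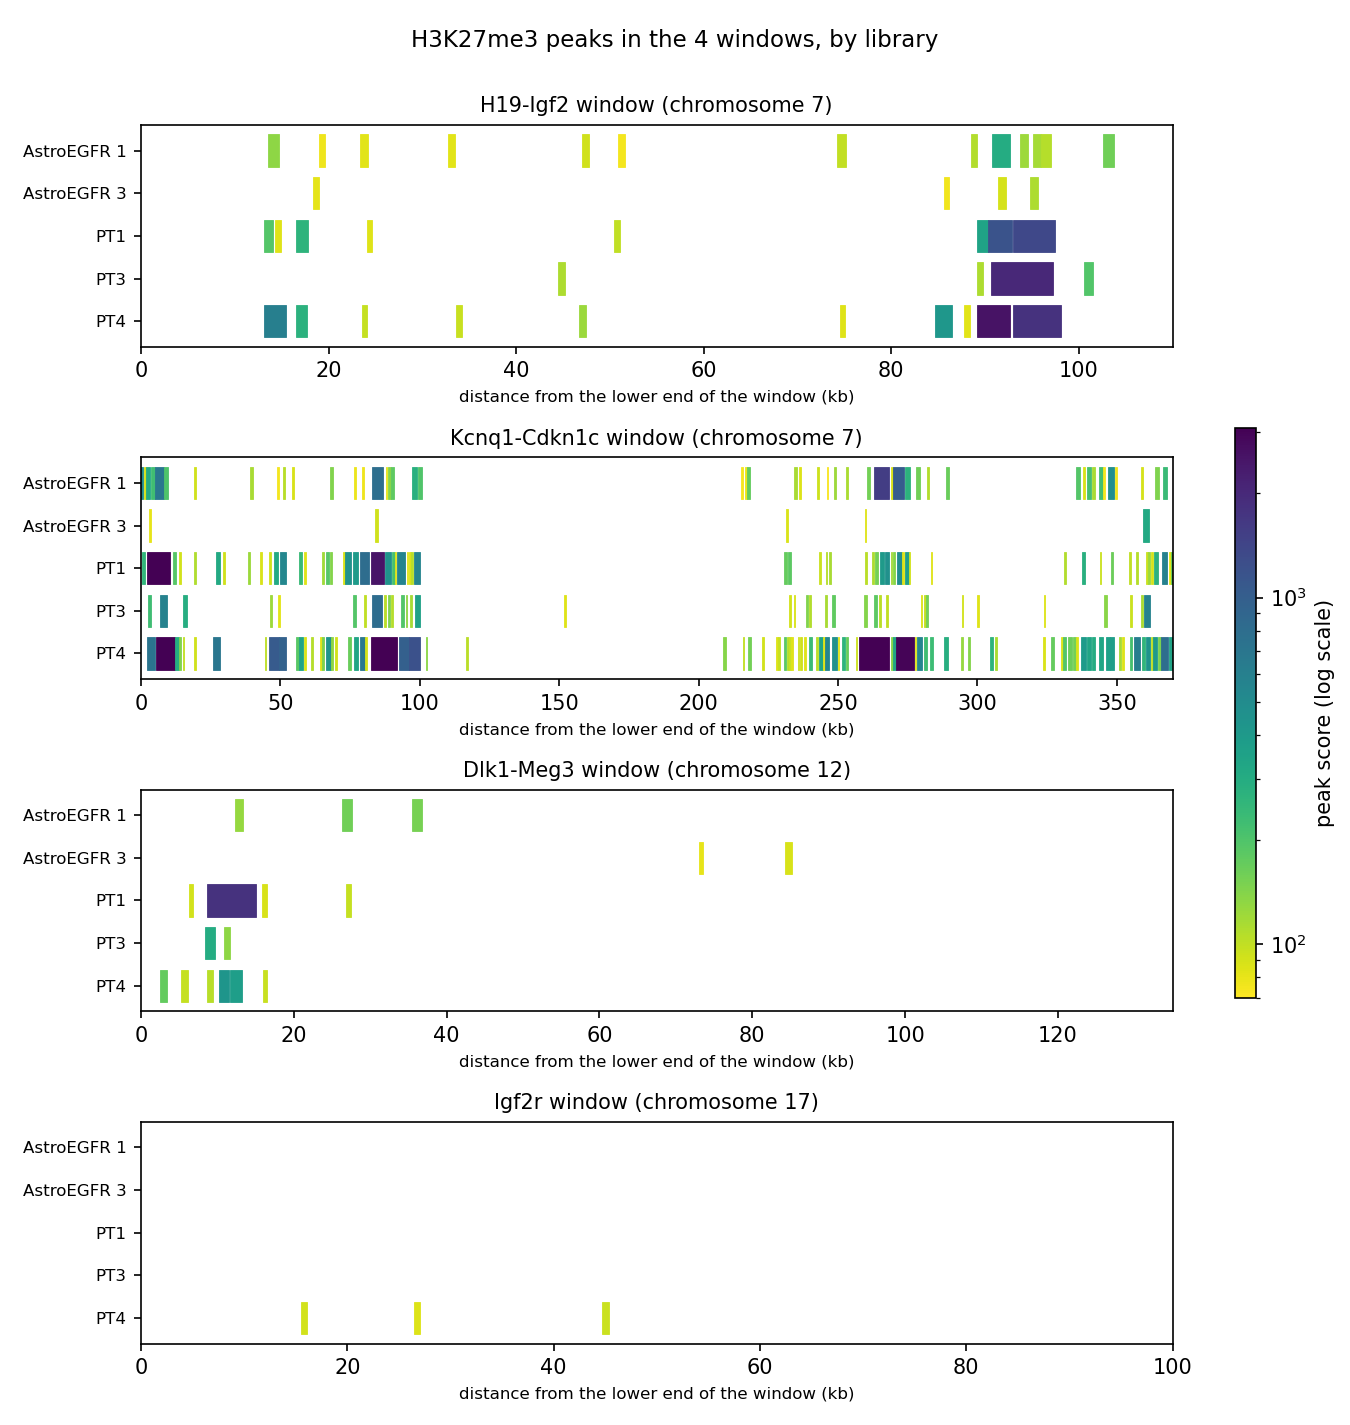
Peaks of H3K27me3 along the 4 windows, drawn as bars against distance from the window start in kb, with 1 row for each AstroEGFR and PT library. Peaks are spread along the Kcnq1-Cdkn1c window, gather near 88 to 98 kb in the H19-Igf2 window, and appear over Igf2r in PT4 alone. In the Dlk1-Meg3 window those of PT gather near 8 to 15 kb.

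H19-Igf2 was marked in all 5 libraries, mainly on the Igf2 side. The window held 13 peaks in AstroEGFR 1, 4 in AstroEGFR 3, 8 in PT1, 4 in PT3 and 10 in PT4. They covered 12459, 3037, 12329, 8979 and 17287 bp, respectively, or 11.3%, 2.76%, 11.2%, 8.16% and 15.7% of 110 kb. Set against the genome, coverage was 5.83 and 20.4 times as dense in AstroEGFR and 3.28, 5.34 and 4.78 times in PT1, PT3 and PT4. Both sides of the window were covered in each library, and the higher-coordinate side, that of Igf2, more so. On that side 13.8% was covered in AstroEGFR 1, 4.31% in AstroEGFR 3, 15.1% in PT1, 14.9% in PT3 and 21.4% in PT4. The side of H19 gave 8.85%, 1.21%, 7.29%, 1.47% and 10.0%, in the same order.

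A single region of 9683 bp, chr7:149843478-149853160, held the highest-scoring peak of the window in every library. The best scores were 299.9 in AstroEGFR 1 (peak at 149845776-149847674), 112.38 in AstroEGFR 3 (149849783-149850675), 1357.9 in PT1 (149847952-149852489), 2023.14 in PT3 (149845654-149852213) and 2579.01 in PT4 (149844110-149847720). Within its own list each peak stood at percentile 81.1, 66.1, 94.8, 99.5 and 97.9, respectively, so every PT library ranked it above either AstroEGFR library. Peaks filled 57.1% and 18.2% of the region in AstroEGFR and 85.9%, 75.0% and 90.8% in PT. It was therefore both higher-ranked and more fully covered in every PT library. Among the 1309 regions of the genome marked in all 5 libraries, 43.2% ranked higher in every PT library and 21.6% were more fully covered in every one, so neither pattern is rare. The opposite patterns, a lower rank or a smaller covered share in every PT library, were met in 0.535% and 0.153% of these regions and in 0 of the 5 that lie in the windows.

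On the H19 side lay the only region of the 4 windows found in both AstroEGFR libraries and in no PT library, chr7:149773303-149774596 (1294 bp). It was 1 of 112 merged regions in the windows (0.893%), compared with 0.0231% of 99403 in the genome. Its peaks were weak, with scores of 77.2 in AstroEGFR 1 and 81.6 in AstroEGFR 3, and shared only 38 bp. The nearest peak of PT1 was 532 bp away and that of PT4 583 bp away, whereas that of PT3 was 24824 bp away. With such neighbours, none of the 143 bins of 5 kb was lost (0.00448% of bins genome-wide).

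Kcnq1-Cdkn1c, the longest window at 370 of 715 kb, carried most of the mark in these clusters. In AstroEGFR 3 it was less densely covered than H19-Igf2 (1.32% against 2.76%). The window held 48 peaks in AstroEGFR 1, 5 in AstroEGFR 3, 60 in PT1, 36 in PT3 and 88 in PT4. Covered length was 62483, 4875, 73158, 34489 and 129949 bp in the same order, which is 16.9%, 1.32%, 19.8%, 9.32% and 35.1% of 370 kb. This was 8.70 and 9.72 times the genome share in AstroEGFR and 5.79, 6.10 and 10.7 times in PT. When the genome was cut into tiles of 370 kb, a tile was covered at least as much as the window in 1.96% and 2.27% of cases in AstroEGFR 1 and 3, and in 3.84%, 3.58% and 0.708% in PT1, PT3 and PT4. By comparison, the 420 kb between the 2 chromosome 7 windows were covered by 6.92% and 0.42% in AstroEGFR and 5.36%, 2.99% and 7.36% in PT. The balance along the window varied between libraries and not by stage. The lower-coordinate side was the more covered in PT1 (25.1% against 14.5%) and PT3 (10.0% against 8.60%). The higher-coordinate side was the more covered in AstroEGFR 1 (20.2% against 13.5%), AstroEGFR 3 (1.81% against 0.83%) and PT4 (41.4% against 28.8%). These sides were not assigned to Kcnq1 or Cdkn1c, because the extent of either gene in the window was not determined here. A stretch of 56407 bp near the middle, chr7:150437469-150493875, had no peak in any library.

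Merging the peaks of all lists gave 85 regions in this window, of which 4 were marked in all 5 libraries. The first, chr7:150286884-150299483 (12600 bp), lies at the lower end of the window. It stood at percentile 93.9 in AstroEGFR 1, 34.6 in AstroEGFR 3, 99.9 in PT1, 95.1 in PT3 and 99.9 in PT4, and in both PT1 and PT4 it held a peak with a score of 3100, a value shared by many of the strongest peaks in the lists. The second, chr7:150367587-150380994, was the widest region of the 4 windows at 13408 bp. Its percentiles were 94.9 and 51.8 in AstroEGFR and 97.6, 97.1 and 99.9 in PT, and peaks filled 50.1% and 6.75% of it in AstroEGFR and 89.7%, 55.9% and 94.1% in PT. These 2 regions and the shared region of the H19-Igf2 window were the 3 of 5 that ranked higher in every PT library (genome 43.2%). The second and the H19-Igf2 region were the 2 of 5 that were more fully covered in every PT library (genome 21.6%).

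The other 2 shared regions did not separate the stages. At chr7:150542677-150553481 (10805 bp) the best peak scored 1574.73 in AstroEGFR 1, the highest of that library in the window, 83.64 in AstroEGFR 3, 463.26 in PT1, 183.25 in PT3 and 3100 in PT4. AstroEGFR 1 thus ranked it above PT1 and PT3, at percentile 98.2 against 83.6 and 72.3. The last, chr7:150643753-150646965 (3213 bp), lies at the Cdkn1c end of the window and went the other way in AstroEGFR 3. Its score there, 313.1, was the highest of that list in the 4 windows and stood at percentile 95.7, whereas AstroEGFR 1 reached only 89.21 (percentile 23.3). In PT the scores were 124.49, 582.98 and 433.41, at percentiles 44.8, 95.1 and 84.1. The 2 libraries without peaks on unplaced sequences, AstroEGFR 3 and PT3, were thus those that ranked the region at the Cdkn1c end highest.

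Just below it lay the only region of the windows found in all PT and in no AstroEGFR library, chr7:150639298-150640611 (1314 bp). It was 1 of 112 merged regions in the windows (0.893%), compared with 3.77% of 99403 in the genome. Its scores were 101.0 in PT1, 94.7 in PT3 and 212.9 in PT4. The nearest peak was 3141 bp away in AstroEGFR 1 and 3962 bp away in AstroEGFR 3. It spans 2 bins of 5 kb, and AstroEGFR 1 had a peak in each, so it did not count among the acquired bins.

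**Figure D2:**
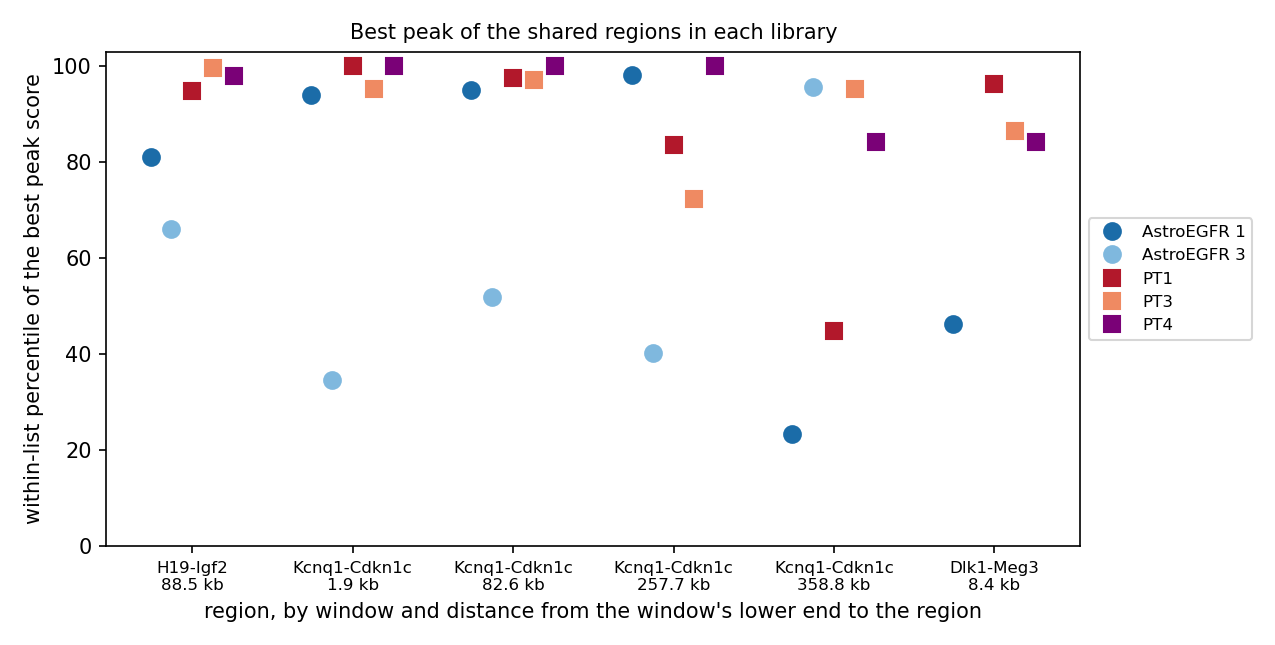
The 5 regions marked in all libraries and the Dlk1-side region marked in 4, showing for each library the percentile of the best peak within its own list. Of the 5, AstroEGFR 3 lies below the PT points in 4 and at the top, with percentile 95.7, in the region at the Cdkn1c end. It has no point in the Dlk1-side region.

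In PT, Dlk1-Meg3 was marked mainly near the lower edge of the window. The window held 3 peaks in AstroEGFR 1, 2 in AstroEGFR 3, 4 in PT1, 2 in PT3 and 6 in PT4. Covered length was 3486, 1500, 8352, 1981 and 6073 bp, or 2.58%, 1.11%, 6.19%, 1.47% and 4.50% of 135 kb. In AstroEGFR 1, PT1, PT3 and PT4 this was 1.33, 1.81, 0.96 and 1.37 times the genome share. AstroEGFR 3 stood apart at 8.19 times, with only 2 peaks behind the value. Tiles of 135 kb in the genome were covered at least as much as the window in 15.9% of cases in AstroEGFR 1 and 3.44% in AstroEGFR 3. In PT1, PT3 and PT4 the share of such tiles was 15.5%, 20.9% and 18.4%. The Dlk1-side region chr12:110688431-110695066 (6636 bp) was marked in 4 libraries. Peaks took up 1050 bp of it in AstroEGFR 1, none in AstroEGFR 3, 6434 bp in PT1, 1981 bp in PT3 and 3656 bp in PT4. The highest score was 127.15 in AstroEGFR 1, 1795.89 in PT1, 301.19 in PT3 and 432.11 in PT4, at percentiles 46.3, 96.3, 86.5 and 84.1. Covered length and rank were thus higher in each PT library than in AstroEGFR 1, and AstroEGFR 3 had no peak to rank. Of the regions marked in every library but AstroEGFR 3, 2 of 7 in the windows were higher than AstroEGFR 1 in both measures in every PT library, compared with 16.4% of 5720 in the genome. The single acquired bin of the windows, chr12:110685001-110690000, lies at this region, at 1 of 143 bins against 0.965% genome-wide. The peak of AstroEGFR 1 falls in a neighbouring bin of the same region, so the acquired bin is not a region without the mark in AstroEGFR 1. The highest-scoring peak of AstroEGFR 1 in the window lay outside that region, at chr12:110706328-110707557 (score 159.77, percentile 59.3). There PT1 had a weaker peak (score 97.48, percentile 27.5), and PT3 and PT4 had none.

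On the Meg3 side of the window no peak was found in AstroEGFR 1, PT1, PT3 or PT4. AstroEGFR 3 had 2 there, which were weak (scores 81.05 and 88.65) and covered 2.22% of that side. Followed past the edge of the window, the stretch without peaks ran for 114 kb in AstroEGFR 1, 124 kb in PT1, 140 kb in PT3 and 124 kb in PT4. It ended at 110830888, 110831835, 110831244 and 110820722, respectively, on chromosome 12. The mark returned above it, as the 100 kb above the window were covered by 21.4% and 2.70% in AstroEGFR and by 13.9%, 4.89% and 13.3% in PT.

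Igf2r was the cluster with the least mark. No peak overlapped its 100 kb in AstroEGFR 1, AstroEGFR 3, PT1 or PT3. In PT4 there were 3 peaks, which covered 1859 bp or 1.86%, 0.57 times the genome share of that list. They were weak, with scores of 90.05, 85.67 and 95.22, and the highest, chr17:12912648-12913372, stood at percentile 24.2. An empty window of this length was common, since 74.7% and 92.4% of the 100 kb tiles of the genome held no peak in AstroEGFR 1 and 3, and 64.7%, 67.3% and 63.3% in PT1, PT3 and PT4. The nearest peak below the window was 13.0 kb away in AstroEGFR 1, 159 kb in AstroEGFR 3, 9.65 kb in PT1, 32.9 kb in PT3 and 9.55 kb in PT4. Igf2r, whose promoter had the most CpGs of those at hand (34), thus gave its name to the window with the fewest peaks. Where that promoter lies on mm9 was not determined here.

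The mean coverage of each window was higher in PT than in AstroEGFR, but the libraries of the 2 stages overlapped in every window and no test passed 0.05. Covered percent was 11.7 ± 3.80 in PT (SD, n = 3) and 7.04 ± 6.06 in AstroEGFR (SD, n = 2) for H19-Igf2, a difference of 4.65 points (exact permutation test, two-sided, p = 0.5). For Kcnq1-Cdkn1c it was 21.4 ± 13.0 and 9.10 ± 11.01, a difference of 12.3 points (exact permutation p = 0.4). Dlk1-Meg3 gave 4.05 ± 2.39 and 1.85 ± 1.04, a difference of 2.20 points (exact permutation p = 0.3). Igf2r gave 0.620 ± 1.07 and 0, which rests on PT4 alone (exact permutation p = 1). The 4 windows together gave 13.7 ± 7.69 and 6.14 ± 6.83, a difference of 7.58 points (exact permutation p = 0.4). Relative to the genome the direction was the other, with 4.87 ± 1.51 times in PT and 7.68 ± 2.87 times in AstroEGFR, a difference of −2.81 (exact permutation p = 0.3). Over these 6 tests the Benjamini-Hochberg adjusted p was 0.6 for 5 and 1 for Igf2r, and the ranges of the groups overlapped in each. With 2 against 3 libraries the exact permutation test cannot go below p = 0.1, so none could pass 0.05.

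Lists of equal length did not settle the direction. When each list was limited to its 3722 top-scoring peaks, the difference was 4.65 points for H19-Igf2, 1.95 for Kcnq1-Cdkn1c, 1.03 for Dlk1-Meg3 and 1.92 for the 4 windows together. With the strongest peaks that cover as much as the shortest list, AstroEGFR 3, it was 0.61, −0.66, −0.56 and −0.35 points, respectively. That setting left 316 to 635 peaks in the other lists, of which AstroEGFR 1, PT1 and PT4 had none in the windows and PT3 had 1, at the shared region of the H19-Igf2 window. The negative values are thus the uncut peaks of AstroEGFR 3 against lists with none, and the positive value is that peak of PT3. Leaving out AstroEGFR 3 left 0.37 points for H19-Igf2 and 4.52 for Kcnq1-Cdkn1c. The part of depth in these differences was not tested, because read numbers were not given in the sources used here.

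**Figure D3:**
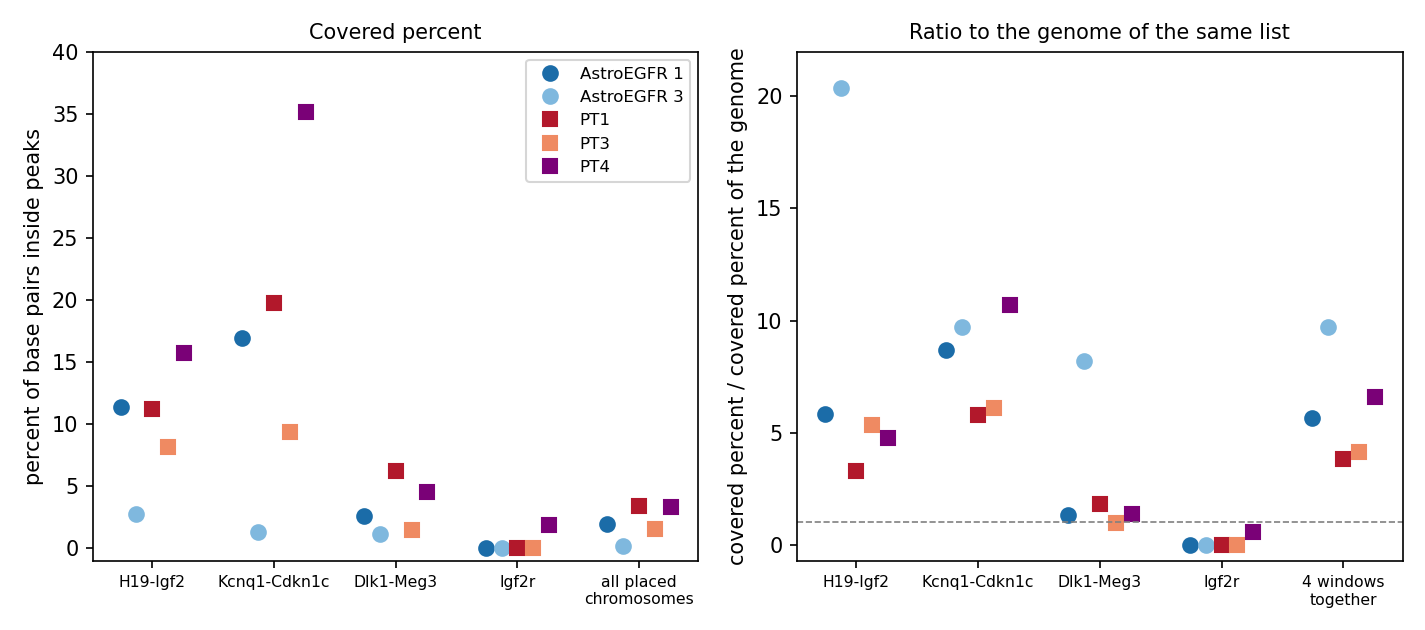
Percent of each window covered by peaks in each library of AstroEGFR (n = 2) and PT (n = 3), drawn as points in the left panel. In the left panel AstroEGFR 3 is the lowest point in the H19-Igf2, Kcnq1-Cdkn1c and Dlk1-Meg3 windows. There PT4 reaches 35.1% in Kcnq1-Cdkn1c, and the groups overlap in every window.

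Regions that few libraries marked were short. Of the 112 merged regions in the windows, 52 were found in 1 library, 31 in 2, 16 in 3, 8 in 4 and 5 in all 5. Their median width rose from 671 bp for regions in 1 library to 10805 bp for those in all 5, though merging peaks of more lists itself widens a region. In the genome, 57.3% of 99403 merged regions were found in 1 library and 1.32% in all 5, against 46.4% and 4.46% in the windows. PT4 alone accounted for 33 regions (29.5%, genome 17.7%). AstroEGFR 1 alone marked 7 (6.25%, genome 6.43%) and AstroEGFR 3 alone 2 (1.79%, genome 0.528%). A further 12 (10.7%) were marked in PT1 and PT4 only, compared with 14.4% in the genome. Another 12 were marked in AstroEGFR 1, PT1 and PT4, the 3 lists with peaks on unplaced sequences, compared with 7.33% in the genome. An example of the last is chr7:150554715-150562206 in the Kcnq1-Cdkn1c window, just above the third shared region, with scores of 1046 in AstroEGFR 1, 488 in PT1 and 3009 in PT4. Base by base, 74.2% of the covered length of AstroEGFR 1 in the windows was also covered in PT4, 55.8% in PT1, 25.7% in PT3 and 3.40% in AstroEGFR 3. Of the covered length of AstroEGFR 3, 71.3% was shared with PT4, 61.5% with PT3, 56.0% with PT1 and 28.3% with AstroEGFR 1. Each AstroEGFR library therefore shared more of its marked bases with PT4 than with the other AstroEGFR library. The lists covered unlike shares of the genome (3.29% in PT4, 1.94% in AstroEGFR 1 and 0.136% in AstroEGFR 3). The part of this in the overlaps was not tested.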

How the data were processed

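H3K27me3 ChIP-seq of 5 mouse libraries (AstroEGFR, n = 2; PT, n = 3) was read from 1 peak list a library. Input libraries (3) were not used here. The sample titles gave the groups and replicate numbers. Bowtie 0.12.9, MACS 1.4.1 and mm9 are named in the submitters' processing notes. The authors called peaks separately in each library and deposited start and end positions (counted from 0, printed here from 1) and a score for each peak, which the lists do not define. Read depth is unknown, so no counting interval is given, and a missing peak is not a missing mark.

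The members and lists were chosen with earlier results of these data known. Covered length is the sum of peak bases in a window. A region or bin of 5 kb counted as marked if a peak of the library overlapped it by 1 bp or more. Acquired means all PT and no AstroEGFR library, lost means both AstroEGFR and no PT library. The genome is the span of the placed chromosomes up to the last peak, 2564 Mb. The percentile of a region is that of its best peak in that library's list. Sides of a window are its parts below and above the middle. For group means, an exact permutation test over libraries (two-sided, 10 arrangements) was used. The study describes independent astrocyte batches and tumours that arose from them, so same-numbered libraries may be a batch and its tumour, but the sources used here do not state which batch gave PT1, PT3 or PT4. Numbers 1 and 3 occur in both groups. Both lists of number 1 have peaks on unplaced sequences and both of number 3 have none, so pairing and this technical feature cannot be told apart.

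By rule, all 7 genes were described by window, with the peak of the highest score in each library and the regions marked in all libraries, acquired, lost or widest. Ranks of shared regions, tiles and flanks were added after seeing the data. Annotation of mm9 was not used here, so marking of gene bodies and starts, and of the other imprinted genes planned, was not run. RefSeq tables of GRCm38.p6 gave gene order and promoters. Overlap functions were tested on simulated lists, where 600 of 600 planted bins were classed correctly, and checked against bedtools 2.31.1. Python 3.11.15, numpy 2.4.6, pandas 2.3.3 and matplotlib 3.10.9 were used. Alternatives by score, list length, joining, window, bin, set and library are given in the closing section.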

Additional observations from a re-analysis of the deposited data

How the results depend on the processing

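With every list cut to the covered length of the shortest, the differences (PT minus AstroEGFR) of Kcnq1-Cdkn1c, Dlk1-Meg3 and the 4 windows together turned to −0.66, −0.56 and −0.35 points. This setting left AstroEGFR 3 whole, PT3 with 1 peak in the windows and the other lists with none, so its signs come from construction. With equal numbers of peaks the same differences were 1.95, 1.03 and 1.92 points. Igf2r rests on weak PT4 peaks. Its difference was 0 at equal length or number of peaks, with scores of at least 100, without PT4 and with the replicate block. It was also 0 in the lists without peaks on unplaced sequences (AstroEGFR 3 against PT3). H19-Igf2 stayed above 0 (0.37 to 8.93 points) and the difference relative to the genome below 0 (−5.55 to −0.21) in 13 of 13 alternatives. These include equal length, where H19-Igf2 rests on 1 PT3 peak and the ratio on that peak and the uncut AstroEGFR 3. That setting therefore cannot decide either sign. The replicate block repeats the values without PT4, so the 13 are not independent.

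Acquired bins numbered 1 in the comparison as reported. In parentheses are the percent of bins so called in the windows and in the genome. They were 0 at equal length (0 and 0.0103) and at equal number of peaks (0 and 0.0780), 4 with scores of at least 100 (2.80 and 0.625), 2 when 25% of the bin had to be covered (1.399 and 0.319), 9 of 357 with bins of 2 kb (2.52 and 0.563), 9 in the lists with peaks on unplaced sequences (6.29 and 3.16) and 26 in the other lists (18.2 and 5.77). Leaving out 1 library gave 1 to 17, with 17 without AstroEGFR 1 (11.9 and 2.77), 2 without AstroEGFR 3 (1.399 and 1.03), 5 without PT1 (3.50 and 1.28) and 8 without PT3 (5.59 and 3.07). Lost bins numbered 0 as reported, 1 with bins of 2 kb (0.280 and 0.00335), 2 in the lists with peaks on unplaced sequences (1.399 and 0.794) and 4 in the others (2.80 and 0.177). Leaving out 1 library gave 0 to 3 lost bins, with 3 without AstroEGFR 1 (2.10 and 0.0704) and 1 without AstroEGFR 3 (0.699 and 0.640). Leaving out 1 library moved the difference of Igf2r between 0 and 0.93 points, that of H19-Igf2 between 0.37 (without AstroEGFR 3) and 8.93 (without AstroEGFR 1), that of Kcnq1-Cdkn1c between 4.52 and 20.1, that of Dlk1-Meg3 between 1.14 and 3.50, that of the 4 windows between 2.76 and 12.4, and that relative to the genome between −4.84 and −0.78.

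A replicate block over the numbers 1 and 3, which drops PT4, gave 2.64 points for H19-Igf2, 5.44 for Kcnq1-Cdkn1c, 1.98 for Dlk1-Meg3, 3.60 for the 4 windows and −3.68 relative to the genome, with 1 acquired and 0 lost bins. An exact paired permutation test over 2 pairs cannot go below p = 0.5, which was its value for Kcnq1-Cdkn1c, Dlk1-Meg3, the 4 windows and the ratio to the genome. It was 1 for H19-Igf2, where PT1 minus AstroEGFR 1 was −0.12 points and PT3 minus AstroEGFR 3 was 5.40 points, and for Igf2r. Joining peaks up to 1000 bp apart and extending windows by 50 kb kept each direction. Read depth is unknown, which limits any statement about missing peaks.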
